A study of Danio rerio with 121 samples.

Results

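The expression of 10 genes of bone and mineralization was followed through zebrafish development in whole embryos. The genes were *sp7*, *ifitm5*, *panx3*, *sparc*, *spp1*, *bglap*, *mgp*, *entpd5a*, *enpp1*, and *phex*. They were selected by their symbols from the 24801 gene symbols of the count table, and all 10 were present and passed the filter on low counts. RNA had been collected from wild-type embryos of the RIKEN WT (RW) strain, without any treatment, at 6, 10, 15, and 20 ss (somite stage, named by the number of somite pairs) and at 24, 32, 48, 72, and 96 hours post fertilization (hpf). It was measured by Lasy-Seq, which reads the 3′ end of transcripts.

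Bone is made by osteoblasts, which secrete a matrix of type I collagen and other proteins in which calcium phosphate crystals then grow. Whether the matrix mineralizes depends on the local balance of phosphate, which forms the mineral, and pyrophosphate, which blocks crystal growth. In zebrafish the first bones, among them the opercle and the cleithrum, form in the head and shoulder girdle late in embryonic life, and mineral also forms early in the sheath of the notochord and in the otoliths of the ear.

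By their names the libraries form 3 sets, and 16 groups of stage and set were tested, so that stages were compared within a set. The S libraries cover 6, 10, and 15 ss and 96 hpf, with 8 libraries a stage but 5 at 15 ss. The DrRyu libraries cover 20 ss and 24, 32, 48, and 72 hpf, with 8 libraries a stage. The plain libraries, with neither an S nor DrRyu in their name, cover 6, 15, and 20 ss and 24, 48, 72, and 96 hpf, with 8 libraries a stage but 4 at 15 ss. Plain and S libraries are dated 2020 and DrRyu libraries 2021, so that set and year cannot be told apart for DrRyu. A deposited sample table lists a used number between 1 and 50 for the plain and S libraries and nothing for DrRyu, without saying what it counts. How many embryos went into each library is not settled, because the labels name a single embryo, the study describes pools, and the used number may not count embryos. The p-values therefore measure the spread between libraries, which may be technical in part. The used number, read from the first library of each group, is 50 at the plain stages except 20 ss (10) and 96 hpf (5). In S libraries it is 25 at 6 ss, 20 at 10 ss, 15 at 15 ss, and 1 at 96 hpf. It thus differs between 96 hpf and 6 ss in both sets and between S and plain libraries at each stage they share. It also differs at 20 ss over 15 ss, 24 hpf over 20 ss, and 96 hpf over 72 hpf of plain. In S libraries it differs at 10 ss over 6 ss and at 15 ss over 10 ss too. In all of these comparisons it cannot be told apart from stage or set.

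Library totals ranged from 866854 to 21646478 counts, with a median of 2493057 in S, 4956971 in DrRyu, and 3036692 in plain libraries. DrRyu libraries were less alike. The correlation of a library with the mean of its group had a median of 0.930 in DrRyu, against 0.971 in plain and 0.968 in S libraries. The spread of a gene was estimated over all libraries together. For the genes named at the start, a fit of each set alone is therefore given wherever it changed a call. No such fit is given for genes of the wider lists read further below, whose calls rest on the fit over all libraries. There were 7 libraries that stood apart from their group, namely replicate 3 at 20 ss, 3 at 24 hpf, 5 and 6 at 48 hpf, and 1 at 72 hpf of DrRyu and replicates 3 and 4 at 96 hpf of S. For the genes named at the start, results that changed without these libraries are given with and without them. The libraries that stood apart were picked after seeing the data. All 7 were the shallowest of their group or next to it, with totals from 866854 to 2410974 counts. The part of depth in their unlikeness was not tested. Replicate 3 at 48 hpf of plain was kept at a correlation of 0.931, though replicate 3 at 96 hpf of S was left out at 0.935.

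The 10 genes were also read as an osteoblast list together with *runx2a*, *runx2b*, *col10a1a*, and *col10a1b*. As the list holds the 10 genes themselves, it is no independent check of their label. *runx2a* and *runx2b*, which encode the factor that starts the osteoblast lineage, had only 4 and 25 counts over all libraries. Both had 0 counts in plain libraries at 48 and at 96 hpf. Levels are given in CPM, counts scaled to a common library size with TMM factors. *col10a1a*, a collagen of zebrafish osteoblasts and of hypertrophic cartilage, had 0.390 ± 0.256 CPM in plain libraries at 24 hpf and 37.9 ± 6.11 CPM at 48 hpf (mean and SD, n = 8 each). By 72 hpf its mean was 166 ± 10.9 CPM, and by 96 hpf it was 261 ± 24.2 CPM. At 6 ss of the plain set 6 of the 14 listed genes had 0 counts (*spp1*, *entpd5a*, *ifitm5*, *runx2a*, *runx2b*, and *col10a1b*), so that the list as a whole does not mark osteoblasts there. Its summed level ranged from 1291 to 1440 CPM at 96 hpf and from 52.5 to 69.1 CPM at 6 ss. *sparc* and *col10a1a* carried it at 96 hpf, with 1002 and 261 of a mean of 1358 CPM, and *sparc* and *sp7* at 6 ss, with 26.1 and 23.1 of 61.0 CPM. In RNA of whole embryos, fewer cells of a type and less RNA per cell cannot be told apart.

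**Figure D1:**
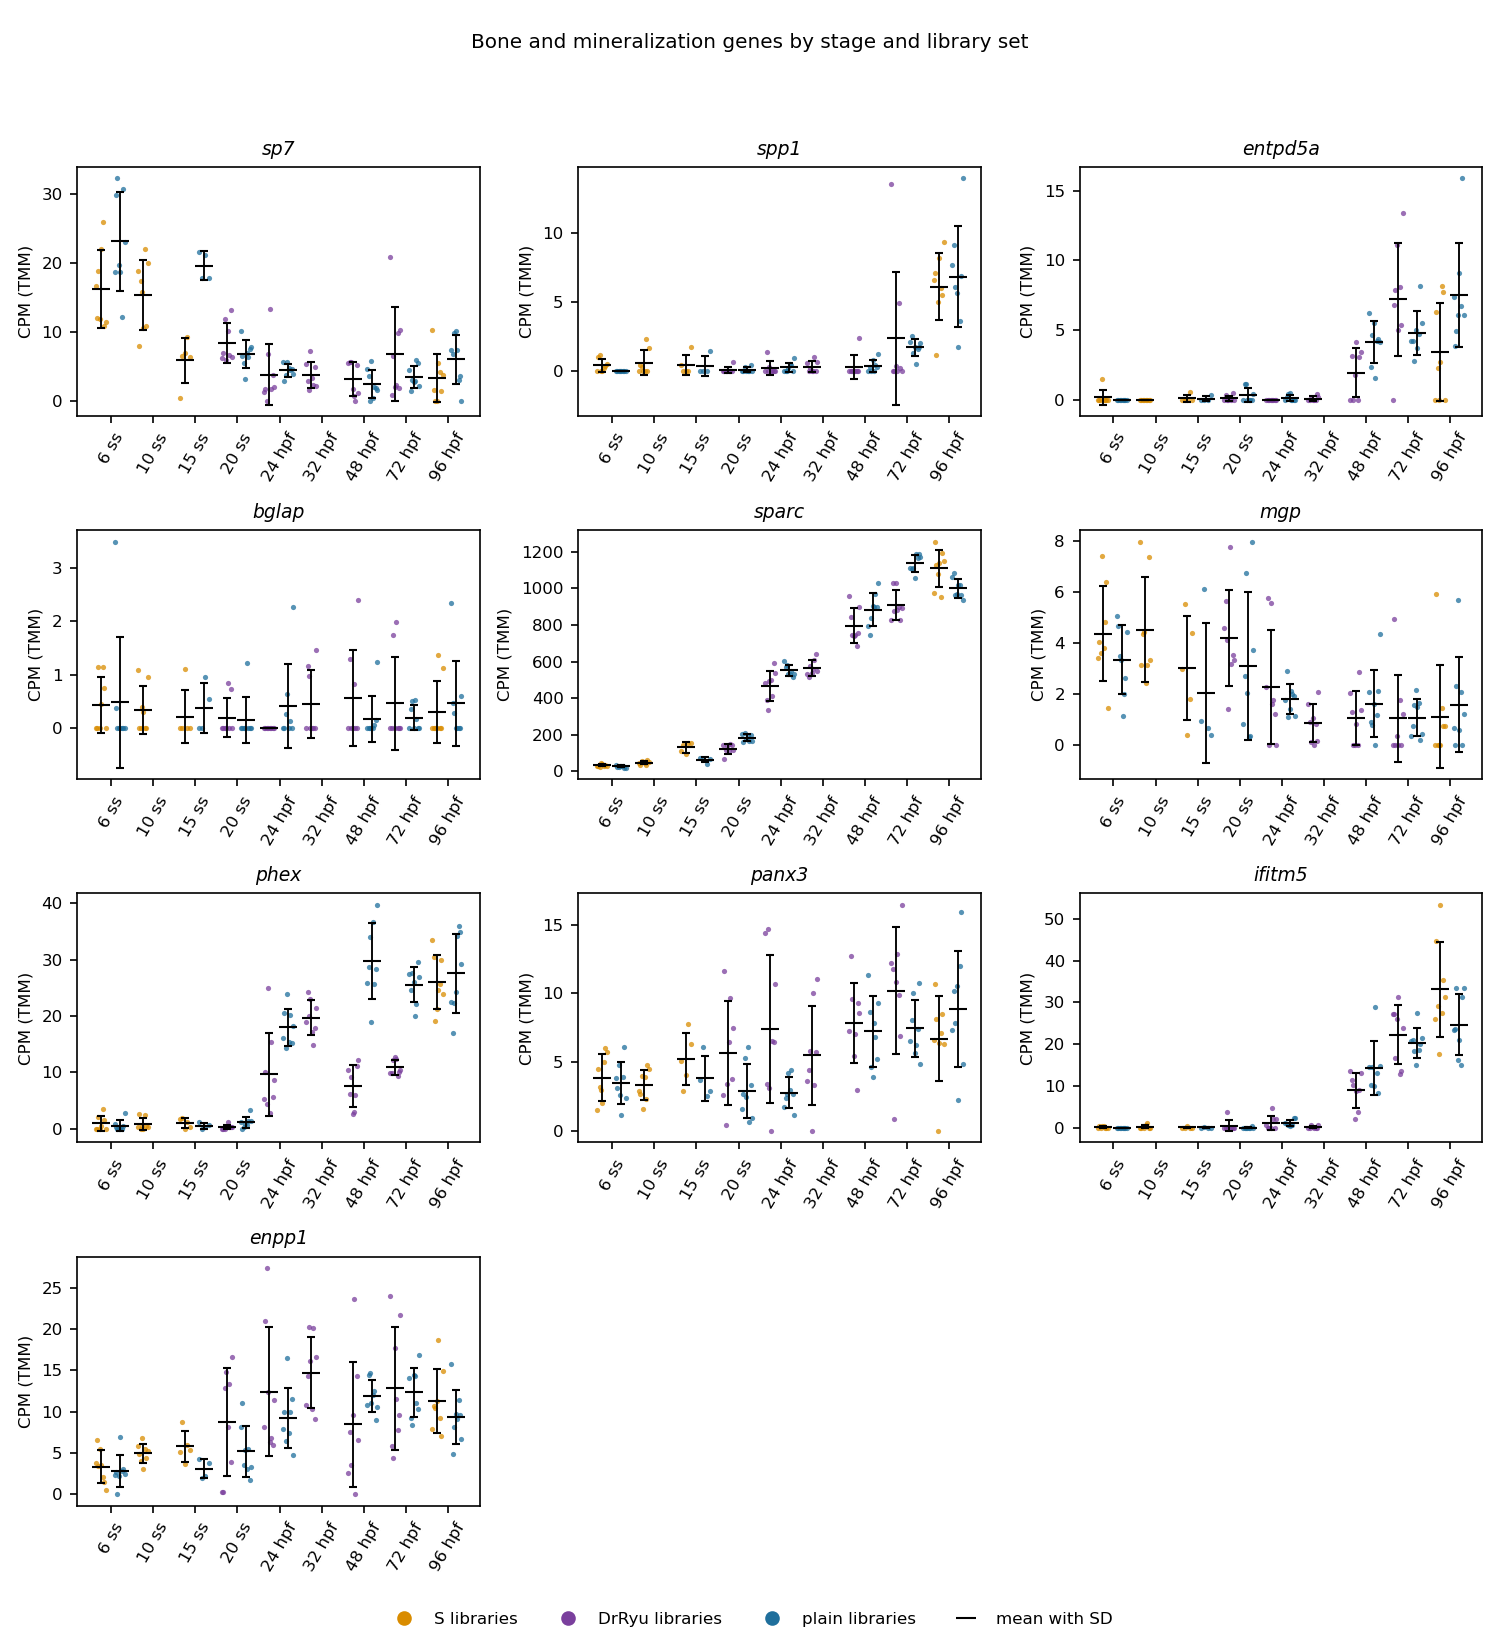
Expression of the 10 genes by stage (x axis) in CPM (y axis, a scale for each gene), with 1 point for each library, S libraries in orange, DrRyu in purple, and plain in blue, and bars for the mean with SD. *sp7* is highest at 6 ss, *sparc* climbs through the stages to 1137 CPM at 72 hpf in plain libraries, and *entpd5a* has a mean of at most 0.348 CPM at any stage before 48 hpf.

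In plain libraries 1 of the 10 genes was called at 15 ss over 6 ss, where 2.63% of the 21638 genes tested were called in either direction, and 1 at 20 ss over 15 ss, where 4.14% were. At 24 hpf over 20 ss, 3 of the 10 were called (13.5% of all genes), at 48 hpf over 24 hpf 4 were (26.2%), and at 72 hpf over 48 hpf 1 was (8.2%), each of them higher at the later stage. For 96 hpf over 72 hpf the edgeR test called 0 of the 10 (4.95% of all genes), with 1 at an unadjusted p under 0.05, and DESeq2 called 0 of the 9 to which it gave an adjusted p. Over the whole span, 96 hpf over 6 ss, 7 rose and 1 fell in plain libraries, where 32% of all genes rose and 22.6% fell.

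In S libraries 1 of the 10 genes was called at 10 ss over 6 ss (1.67% of all genes) and 1 at 15 ss over 10 ss (1.77%). At 96 hpf over 6 ss of the S set, 6 rose and 2 fell, where 30.5% of all genes rose and 22.6% fell. In DrRyu libraries 3 were called at 24 hpf over 20 ss (27.1%), 3 at 32 hpf over 24 hpf (12.1%), 4 at 48 hpf over 32 hpf (19.3%), and 1 at 72 hpf over 48 hpf (18.1%). For 48 hpf over 24 hpf 4 were called in DrRyu as well, where 27.5% of all genes were. In either direction, 8 of the 10 genes were called over the whole span in each set, beside a background of 54.5% of all genes in plain and 53.1% in S libraries.

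**Figure D2:**
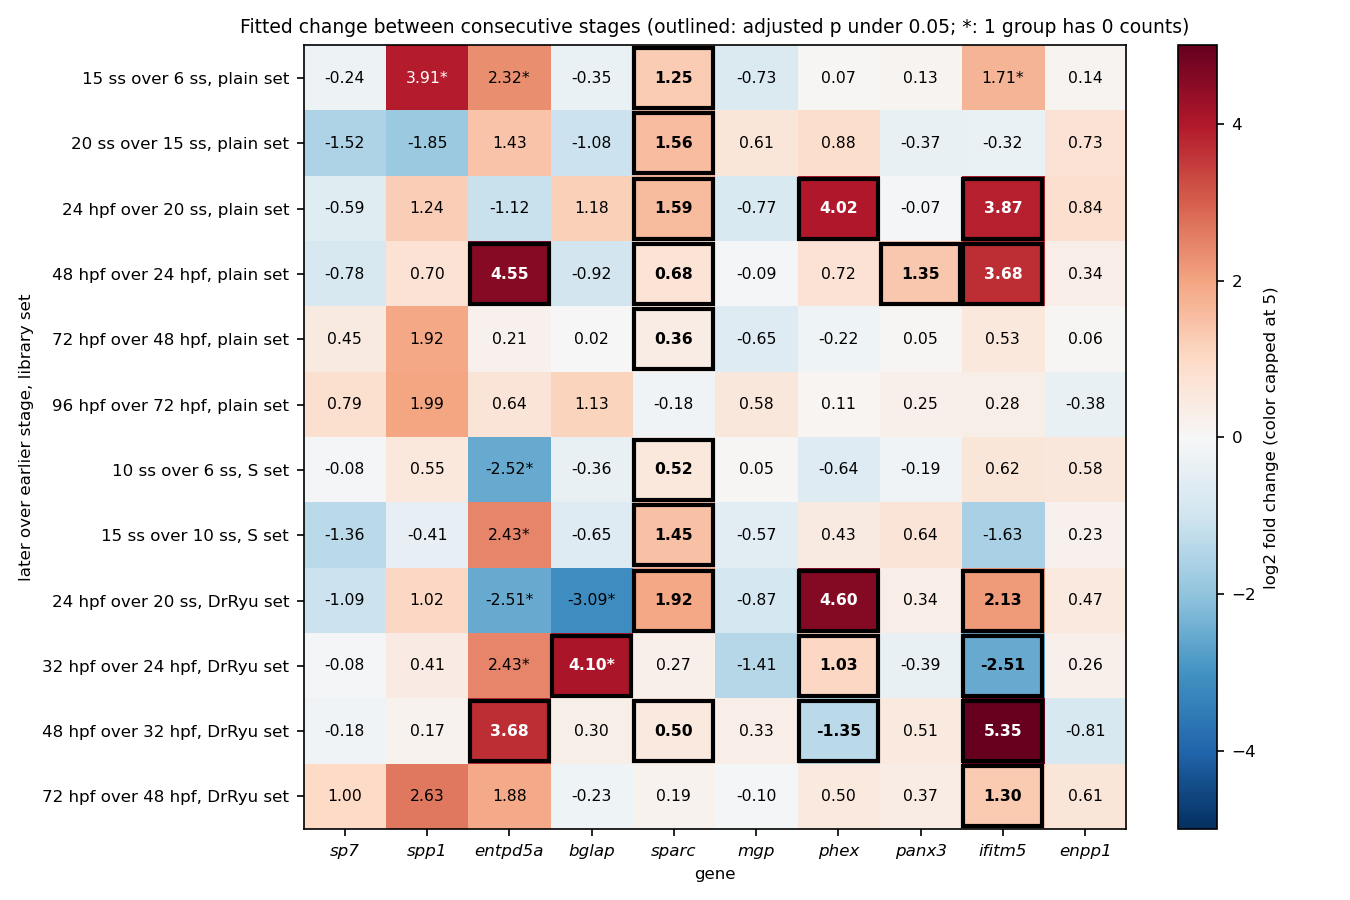
Fitted log2 fold changes of the 10 genes (columns) between consecutive stages of a library set (rows), with red for higher and blue for lower at the later stage, bold and outlined where the adjusted p was under 0.05, and an asterisk where 1 of the 2 groups has 0 counts and the fitted value is no measure of size. *sparc* is outlined in 9 of the 12 steps, and *ifitm5* changes by 3.68 at 48 hpf over 24 hpf in plain libraries.

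*sp7*, also called osterix, encodes a zinc finger factor that osteoblasts need to mature. It was the only one of the 10 genes called lower at 96 hpf than at 6 ss in both sets that hold these stages. At 96 hpf *sp7* ranged from 0 to 10.1 CPM with a median of 7.07 in plain libraries and from 0 to 10.3 with a median of 2.66 in S libraries, 1 and 2 of them at 0. At 6 ss it ranged from 12.2 to 32.2 CPM with a median of 21.3 in plain libraries and from 10.9 to 25.9 with a median of 14.3 in S libraries. Every library of 96 hpf thus held less *sp7* than any of 6 ss. The log2 fold change of 96 hpf over 6 ss was -1.89 ± 0.45 (SE, adjusted p = 0.00017) in plain and -2.18 ± 0.47 (adjusted p = 3.7e-05) in S libraries.

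The values between these stages depended on the fit. At 20 ss the 8 plain libraries lay between 3.27 and 10.2 CPM, all below the 4 plain libraries at 15 ss, which had 21.6, 17.8, 21.2, and 17.8. On the log2 scale *sp7* differed between 20 ss and 15 ss by -1.52 ± 0.51, which missed the threshold in the fit over all libraries (adjusted p = 0.072) and passed it in the fit of plain libraries alone (adjusted p = 0.00077), with DESeq2 (0.041), and without the libraries that stood apart (0.028). In the S set the 5 libraries at 15 ss had 0.425, 6.49, 7.03, 9.29, and 6.35 CPM, against 8.01 to 22.0 at 10 ss, and the log2 fold change of -1.36 ± 0.52 likewise passed only in the S set alone (adjusted p = 0.22 over all libraries and 0.044 alone). At 15 ss the 2 sets did not overlap, with every S library under every plain one. The difference of S over plain at 15 ss was -1.70 ± 0.58 on the log2 scale and was not called (adjusted p = 0.23).

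From 24 hpf on no step of *sp7* was called in the edgeR fit over all libraries. In plain libraries its mean was 4.49 ± 0.944 CPM at 24 hpf and 2.53 ± 2.00 at 48 hpf (SD, n = 8 each). The 72 hpf libraries averaged 3.57 ± 1.59 CPM and those of 96 hpf 6.05 ± 3.51 CPM. In DrRyu libraries it was 8.45 ± 2.88 CPM at 20 ss and between 3.24 and 6.83 on average later. At 24 hpf over 20 ss of this set the change was -1.09 ± 0.45 (adjusted p = 0.059), which passed with DESeq2 (0.042) and missed without the libraries that stood apart (0.14). The highest DrRyu value, 20.8 CPM at 72 hpf, was of 1 library that stood apart, and without it the mean of that stage was 4.83 ± 3.99 (n = 7).

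*ifitm5* encodes a membrane protein of osteoblasts, also called BRIL, which is altered in a human form of brittle bone disease. It was at or near 0 in the somite stages and rose at 24 and at 48 hpf. At 6 ss the 8 plain libraries had 0 counts of *ifitm5*, which allows up to 0.149 CPM over the group at 3 counts, and at 15 and 20 ss 1 library each had 1 count. At 24 hpf it ranged from 0.381 to 2.30 CPM with a median of 0.756. At 48 hpf it ranged from 8.28 to 28.8 CPM with a median of 13.8, so that every library lay above every one of 24 hpf.

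The change of *ifitm5* was 3.87 ± 0.99 on the log2 scale at 24 hpf over 20 ss (adjusted p = 0.0020) and 3.68 ± 0.49 at 48 hpf over 24 hpf (adjusted p = 2.5e-10). Later steps in plain libraries were 0.53 ± 0.42 at 72 hpf over 48 hpf and 0.28 ± 0.42 at 96 hpf over 72 hpf, neither called. At 96 hpf it reached 33.1 ± 11.3 CPM in S and 24.7 ± 7.32 in plain libraries (SD, n = 8 each). The plain value was at least 165-fold higher than that of 6 ss. In the DrRyu set it rose between 32 and 48 hpf. Its 48 hpf libraries ranged from 2.06 to 13.6 CPM and its 32 hpf libraries from 0 to 0.551, and the change was 5.35 ± 0.57 (adjusted p = 8.5e-14).

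Calls for *ifitm5* at the low levels of the DrRyu set were less firm. At 24 hpf 4 of the 8 libraries were at 0 and the highest had 4.76 CPM, and at 20 ss 1 library that stood apart held 3.66 CPM while the others held at most 0.284. The rise of 24 hpf over 20 ss was 2.13 ± 0.69 (adjusted p = 0.013) with all libraries, 4.71 without those that stood apart, and not called in DrRyu alone (adjusted p = 0.18). The fall of 32 hpf over 24 hpf (-2.51 ± 0.62, adjusted p = 0.0031) was not called in DrRyu alone (adjusted p = 0.094). The rise of 72 hpf over 48 hpf (1.30 ± 0.43, adjusted p = 0.023) was called neither there (adjusted p = 0.34) nor without the libraries that stood apart (adjusted p = 0.055).

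*panx3* encodes a pannexin channel which, in mice, is found in osteoblasts and cartilage cells. It had counts in 118 libraries and in every group. In plain libraries *panx3* ranged from 3.96 to 11.4 CPM with a median of 7.36 at 48 hpf and from 1.13 to 4.42 with a median of 2.72 at 24 hpf, and the 2 ranges overlapped. The change was 1.35 ± 0.44 on the log2 scale (adjusted p = 0.013). Between 96 hpf and 6 ss it was 1.34 ± 0.46 in plain libraries (adjusted p = 0.0099), and in S libraries 0.84 ± 0.46 was not called over all libraries (adjusted p = 0.11) but was called in the S set alone (0.035), with DESeq2 (0.017), and without the libraries that stood apart (1.10, adjusted p = 0.037). DrRyu libraries spread from 0 to 14.7 CPM at 24 hpf with a median of 6.50, and no step within that set was called.

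*sparc*, or osteonectin, encodes a collagen-binding matrix protein of bone that many other tissues also make. It had 299976 counts in all and was counted in every library. Its level rose at each step to 72 hpf in plain libraries. In the somite stages its mean was 26.1 ± 5.27 CPM at 6 ss (n = 8), 62.2 ± 14.2 at 15 ss (n = 4), and 183 ± 19.8 at 20 ss (SD, n = 8 here and later). By 24 hpf it was 551 ± 30.2 CPM, with libraries from 513 to 602, and by 48 hpf 884 ± 91.6 CPM, with libraries from 745 to 1027. The 72 hpf libraries ranged from 1057 to 1186 CPM around a mean of 1137 ± 46.8, and the 96 hpf libraries from 937 to 1083 around 1002 ± 52.1. No 2 successive stages up to 72 hpf overlapped in their libraries.

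The log2 fold changes of *sparc* in plain libraries were 1.25 ± 0.13 at 15 ss over 6 ss (adjusted p = 7.9e-13), 1.56 ± 0.14 at 20 ss over 15 ss (2.2e-17), and 1.59 ± 0.11 at 24 hpf over 20 ss (1.5e-27). They then became smaller, with 0.68 ± 0.10 at 48 hpf over 24 hpf (1.6e-08) and 0.36 ± 0.10 at 72 hpf over 48 hpf (0.011). At 96 hpf over 72 hpf the value was -0.18 ± 0.10, not called over all libraries (adjusted p = 0.39) and called in plain libraries alone (adjusted p = 0.036). *sparc* also rose in the other sets. At 15 ss the 5 S libraries had 109, 143, 92.5, 153, and 153 CPM, against 32.5 to 61.5 at 10 ss, a change of 1.45 ± 0.12 (adjusted p = 1.8e-18). In DrRyu libraries 24 hpf over 20 ss gave 1.92 ± 0.11 (2.4e-34), and the 32 hpf libraries, at 514 to 644 CPM, overlapped those of 24 hpf, at 337 to 591. The step of 48 hpf over 32 hpf was 0.50 ± 0.10 in that set.

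*spp1* encodes osteopontin, an acidic phosphoprotein of the bone matrix. It was near 0 until 48 hpf. In plain libraries *spp1* had 0 counts at 6 ss and a mean of at most 0.384 CPM at any stage to 48 hpf. It then ranged from 0.535 to 2.57 CPM with a median of 1.77 at 72 hpf and from 1.71 to 14.0 with a median of 6.49 at 96 hpf. Only at these 2 stages did each of the plain libraries hold a count.

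The mean of *spp1* at 96 hpf, 6.86 ± 3.70 CPM in plain libraries, was at least 45.9-fold higher than at 6 ss (adjusted p = 2.2e-06). In S libraries it was 6.13 ± 2.45 CPM at 96 hpf, against 0.404 ± 0.452 CPM in the 8 libraries of 6 ss, which is 3.82 ± 1.09 on the log2 scale (adjusted p = 0.0017). The last step, 96 hpf over 72 hpf, was 1.99 ± 0.97 and was called in plain libraries alone (adjusted p = 0.024) but not over all libraries (adjusted p = 0.29). In DrRyu libraries *spp1* rested on few libraries. At 72 hpf 4 of the 8 were at 0, 1 held 4.93 CPM, and 1 that stood apart held 13.6, and the change of 72 hpf over 48 hpf was 2.63 ± 1.03 with it (adjusted p = 0.062) and 0.72 without (adjusted p = 0.76).

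*bglap*, or osteocalcin, and *mgp*, or matrix Gla protein, encode small proteins whose glutamates are carboxylated with vitamin K so that they bind calcium, and *mgp* is known in mice as an inhibitor of calcification. The genes are neighbours in the zebrafish reference. *bglap* stayed near the limit of detection throughout, with 205 counts in 41 libraries and a highest group mean of 0.566 CPM, at 48 hpf of DrRyu. It had 0 counts at 24 hpf of the DrRyu set. Set against 3 counts over that group, its mean was 4.64-fold higher at 32 hpf and 5.83-fold higher at 48 hpf (adjusted p = 0.033 and 0.012). These folds leave out the counting error of the means at 32 and 48 hpf. The 46 counts at 32 hpf and the 21 at 48 hpf each came from 3 of the 8 libraries, and without the highest library the folds were 3.14 and 3.13. The first of these calls was not made in DrRyu alone (adjusted p = 0.13), and the second was not made with DESeq2 (0.16).

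*mgp* was low at all stages, with 1 call over the whole span, in S libraries. In S libraries it ranged from 0 to 5.92 CPM with a median of 0.369 at 96 hpf, where 4 of 8 libraries were at 0, and from 1.44 to 7.40 with a median of 3.91 at 6 ss. The log2 fold change of -1.85 ± 0.76 was called (adjusted p = 0.033) but not without the 2 S libraries that stood apart (-1.42, adjusted p = 0.12). In plain libraries *mgp* averaged 1.57 ± 1.87 CPM at 96 hpf and 3.34 ± 1.36 at 6 ss (SD, n = 8 each), and the value of -1.04 ± 0.74 was not called (adjusted p = 0.24). No step between neighbouring stages was called for *mgp* in any set.

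**Figure D3:**
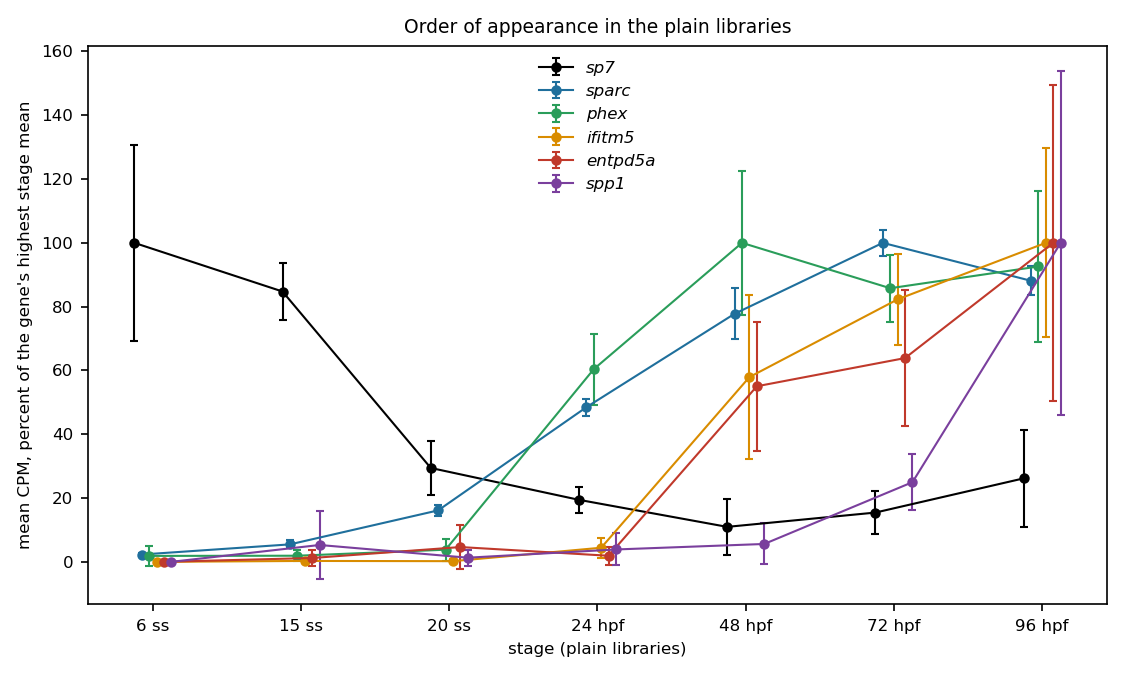
Mean CPM of *sp7*, *sparc*, *phex*, *ifitm5*, *entpd5a*, and *spp1* in plain libraries at 7 stages, as a percentage of each gene's highest stage mean, with bars for the SD (n = 8, 4 at 15 ss). *phex* reaches 60.4% of its highest mean at 24 hpf, while *ifitm5* and *entpd5a* reach 57.9% and 55.0% at 48 hpf and *spp1* 25.0% at 72 hpf.

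*entpd5a* encodes an enzyme that cleaves nucleoside diphosphates and that zebrafish need to form any bone mineral. It was near 0 until 24 hpf and rose at 48 hpf. In plain libraries *entpd5a* ranged from 1.57 to 6.20 CPM with a median of 4.30 at 48 hpf and from 0 to 0.507 at 24 hpf, where 5 of 8 libraries were at 0. The groups did not overlap, and the change was 4.55 ± 0.88 on the log2 scale (adjusted p = 1.1e-05). At 96 hpf it averaged 7.51 ± 3.73 CPM in plain libraries, at least 50.3-fold higher than at 6 ss, where it had 0 counts.

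In DrRyu libraries *entpd5a* rose between 32 and 48 hpf. At 48 hpf it ranged from 0 to 4.15 CPM with a median of 2.45, and at 32 hpf from 0 to 0.463 with a median of 0. The change of 3.68 ± 0.85 was called (adjusted p = 0.00062). In S libraries the value at 96 hpf was 3.41 ± 3.52 CPM with 3 of the 8 libraries at 0, and the change over 6 ss was 4.42 ± 0.99 (adjusted p = 6.9e-05). With counts in 7 S libraries the gene was under the filter of the S set alone and was not tested there. The gene overlaps *coq6*, which encodes an enzyme of ubiquinone synthesis, and salmon was run with an unstranded library type, so that reads of the 2 genes cannot be told apart by strand where they overlap. *coq6* averaged 13.7 ± 2.61 CPM at 24 hpf and 13.1 ± 3.24 at 6 ss in plain libraries, where *entpd5a* was at or near 0. Whether reads were shared between the 2 genes at these or later stages was not tested.

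*enpp1* encodes the enzyme that makes pyrophosphate from nucleotides outside the cell and so acts against mineral. It was present from the first stage and rose over the whole span, while no single step was called in the fit over all libraries. *enpp1* ranged from 4.83 to 15.8 CPM with a median of 9.33 at 96 hpf and from 0 to 6.87 with a median of 2.57 at 6 ss in plain libraries. The S libraries ranged from 7.00 to 18.7 CPM at 96 hpf, all above the 0.478 to 6.53 of 6 ss. The log2 fold changes were 1.74 ± 0.44 in plain (adjusted p = 0.00042) and 1.76 ± 0.43 in S libraries (adjusted p = 0.00025). The step of 24 hpf over 20 ss, 0.84 ± 0.40, was called in plain libraries alone (adjusted p = 0.021, against 0.18 over all libraries).

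*phex* encodes a membrane endopeptidase, and its loss in humans causes an inherited rickets with phosphate wasting. It rose between 20 ss and 24 hpf. In plain libraries *phex* ranged from 14.3 to 23.9 CPM with a median of 17.2 at 24 hpf and from 0 to 3.36 with a median of 1.02 at 20 ss. The change was 4.02 ± 0.44 on the log2 scale (adjusted p = 1.3e-13). DrRyu libraries ranged from 2.72 to 25.0 CPM with a median of 7.12 at 24 hpf and from 0 to 1.13 at 20 ss, a change of 4.60 ± 0.48 (adjusted p = 4.7e-15), and in both sets the groups did not overlap.

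At the later stages *phex* in plain libraries averaged 29.7 ± 6.71 CPM at 48 hpf, 25.5 ± 3.13 at 72 hpf, and 27.5 ± 7.06 at 96 hpf (SD, n = 8 each). The step of 48 hpf over 24 hpf, 0.72 ± 0.33, was not called in the edgeR fit over all libraries (adjusted p = 0.10). It was called in plain libraries alone (adjusted p = 0.00079), with DESeq2 (0.0022), and without the libraries that stood apart (0.048). In DrRyu libraries *phex* averaged 19.7 ± 3.14 CPM at 32 hpf, 7.59 ± 3.70 at 48 hpf, and 10.9 ± 1.34 at 72 hpf. The fall of 48 hpf over 32 hpf was -1.35 ± 0.34 (adjusted p = 0.0020), and no library of 48 hpf reached any of 32 hpf. The rise of 32 hpf over 24 hpf, 1.03 ± 0.34 (adjusted p = 0.032), was called neither in DrRyu alone (adjusted p = 0.15) nor without the libraries that stood apart (adjusted p = 0.053).

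The sets were also compared at the stages they share. At 48 hpf *phex* ranged from 2.58 to 12.2 CPM in DrRyu and from 19.0 to 39.7 in plain libraries, a log2 difference of -1.94 ± 0.35 (adjusted p = 8.7e-06). At 72 hpf it ranged from 9.28 to 12.7 CPM in DrRyu and from 20.1 to 29.5 in plain libraries, a difference of -1.22 ± 0.34 (adjusted p = 0.0067). The sum of 3 skeletal muscle markers, *ckma*, *actc1b*, and *myhz2*, was lower in DrRyu libraries at the same stages. It ranged from 5277 to 11433 CPM in DrRyu and from 29539 to 38770 in plain libraries at 48 hpf, and from 8026 to 13678 in DrRyu and from 19786 to 23401 in plain libraries at 72 hpf. Within DrRyu, where *phex* was lower at 48 than at 32 hpf, the sum averaged 9062 ± 2051 CPM at 48 hpf and 5508 ± 1142 at 32 hpf (SD, n = 8 each). All 3 markers had counts in each group. A sum of 9 cartilage markers was lower in DrRyu too, with 481 to 851 CPM against 975 to 1220 in plain libraries at 48 hpf. At 72 hpf it was 1077 to 1635 CPM in DrRyu against 1988 to 2210 in plain libraries. A sum of 3 hatching gland markers was higher in all DrRyu libraries at both stages. The part of these sums in the *phex* difference was not tested.

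**Figure D4:**
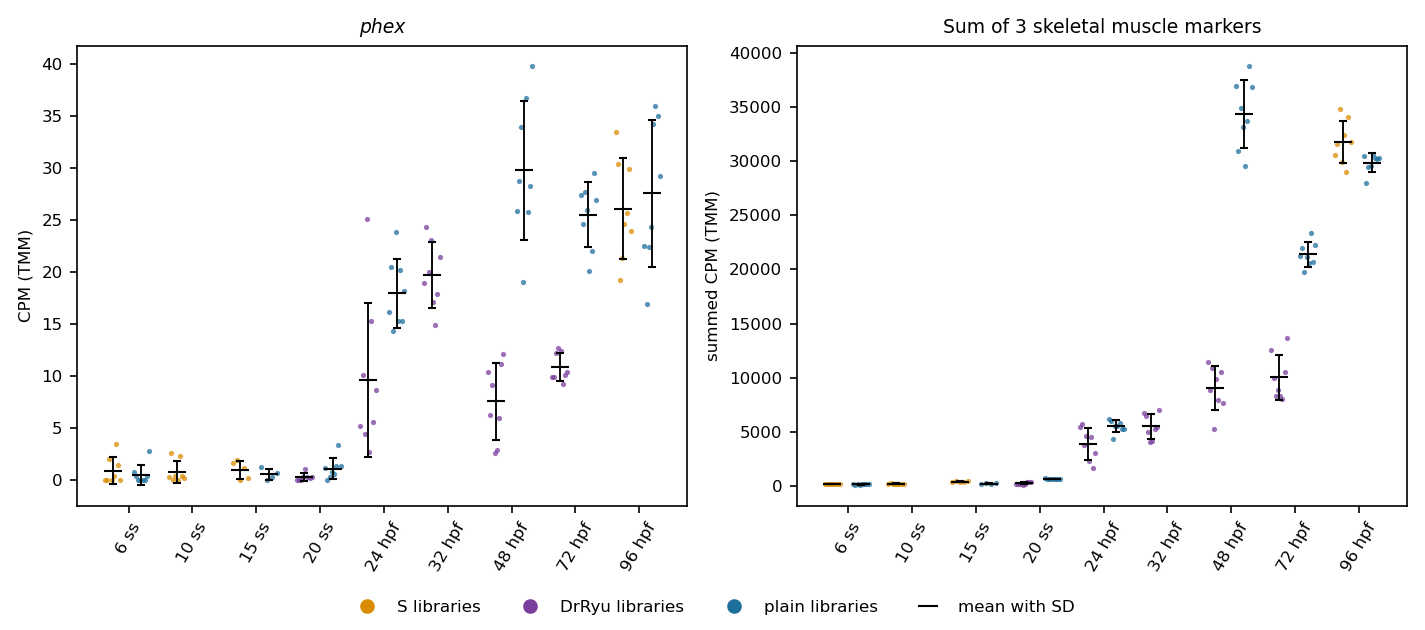
*phex* (left, CPM) and the sum of 3 skeletal muscle markers (right, summed CPM) by stage, with 1 point for each library, S libraries in orange, DrRyu in purple, and plain in blue, and bars for the mean with SD. At 48 and 72 hpf the DrRyu libraries lie below all plain libraries in both panels.

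At 20 ss 1 of the 10 genes was called between DrRyu and plain libraries, where 19.1% of all genes were, and at 72 hpf 2 were (13.8%). These included *sparc*, which ranged from 67.9 to 151 CPM in DrRyu and from 159 to 211 in plain libraries at 20 ss (-0.57 ± 0.11, adjusted p = 1e-05) and from 827 to 1032 in DrRyu and from 1057 to 1186 in plain libraries at 72 hpf (-0.32 ± 0.10, adjusted p = 0.021). At 24 hpf 3 were called (19.3%), namely *bglap* and *phex* lower and *panx3* higher in DrRyu. For *bglap* the DrRyu libraries were at 0 counts, and the plain mean was 4.26-fold the level of 3 counts over the DrRyu group. In plain libraries 1 library held 12 of the 20 counts, and without it the fold was 1.53. Neither fold takes in the counting error of the plain counts. *panx3* differed by 1.37 ± 0.44 (adjusted p = 0.018), and *phex* by -0.90 ± 0.34 (adjusted p = 0.0495), which was lost without the libraries that stood apart (adjusted p = 0.098) and with DESeq2 (0.053). At 48 hpf 1 was called (14.3%), *phex*. At 20 ss the sum of the 3 muscle markers ranged from 120 to 359 CPM in DrRyu and from 610 to 697 in plain libraries. Within DrRyu it ranged from 120 to 190 in replicates 1 to 5 and from 307 to 359 in replicates 6 to 8. The sum of presomitic mesoderm markers overlapped, with 201 to 362 CPM in DrRyu and 206 to 262 in plain libraries. The cartilage sum split the DrRyu replicates as the muscle sum did, with 55.8 to 74.0 CPM in replicates 1 to 5 and 244 to 298 in replicates 6 to 8. In plain libraries it ranged from 267 to 369 CPM. The part of these markers in the *sparc* difference was not tested.

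Between S and plain libraries *sparc* at 15 ss was the 1 call (0.846% of all genes). It ranged from 92.5 to 153 CPM in S and from 41.7 to 74.3 in plain libraries, a difference of 1.07 ± 0.15 (adjusted p = 8.1e-08). Markers of stage differed between these groups too. The summed CPM of the presomitic mesoderm markers *msgn1*, *tbx16*, *her7*, and *tbx6* ranged from 264 to 326 in S and from 376 to 479 in plain libraries, and that of the 3 muscle markers from 340 to 442 in S and from 181 to 225 in plain libraries. Their part in the differences of *sparc* and *sp7* was not tested. At 6 ss and at 96 hpf the edgeR test called 0 of the 10 genes between S and plain libraries (0.536% and 1.27% of all genes), with 2 and 0 at an unadjusted p under 0.05. DESeq2 called 0 as well, but it gave an adjusted p to only 8 of the 10 at 6 ss and to 1 at 96 hpf.

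Whether the change between stages itself differed between sets was tested with interaction terms. For 24 hpf over 20 ss, 48 hpf over 24 hpf, and 72 hpf over 48 hpf between the plain and DrRyu sets, and for 96 hpf over 6 ss between the plain and S sets, edgeR called 0 of the 10 genes each time (5.03%, 4.58%, 2.04%, and 0.795% of all genes). At an unadjusted p under 0.05 there were 2, 3, 0, and 2. DESeq2 called *sparc* for the first (adjusted p = 0.0071) and *phex* for the second (adjusted p = 0.046). It called 0 for the other two, where it gave an adjusted p to only 1 and 2 of the 10 genes. For *phex* at 48 hpf over 24 hpf the edgeR estimate of plain minus DrRyu was 1.04 ± 0.48 (adjusted p = 0.22).

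The spread between libraries was set against counting error. At 96 hpf the CV of *sparc* was 9.28% in S and 5.20% in plain libraries, where counts alone would give 2.01% and 2.10%. For *ifitm5* it was 34.1% in S and 29.6% in plain libraries (11.4% and 13.3% from counts alone), and for *phex* 18.6% in S and 25.6% in plain (12.9% in each from counts alone). The used number listed at 96 hpf is 1 in S and 5 in plain, and its part in the spread was not tested. At 24 hpf the DrRyu libraries spread more than plain ones, with a CV of 76.7% against 18.4% for *phex* (16.6% and 8.71% from counts alone), 17.8% against 5.47% for *sparc*, and 62.8% against 39.1% for *enpp1*.

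The genes with the most similar courses were sought among the 21638 tested, by Pearson's r of the mean log2(CPM + 1) over the 16 groups, which share libraries and staging, so that the values are descriptive. For *phex* they were *myhz1.3*, a myosin heavy chain (0.987), *cavin4a*, a muscle caveolar protein (0.986), and *chrne*, an acetylcholine receptor subunit (0.986). For *sparc* they were *fgg*, a fibrinogen chain (0.993), *phyhd1* (0.992), and *col11a1b*, a fibrillar collagen (0.991). For *ifitm5* they were *admb* (0.990), *luzp2* (0.987), and *aspn*, a small matrix proteoglycan (0.984).

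For *entpd5a* the most similar genes were *camta1a* (0.980), *irx6a* (0.969), and *zfpm2a* (0.969), and for *spp1* *pde6ga* (0.983), *shbg* (0.983), and the elastase *ela3l* (0.982). *sp7* was most like the caudal homeobox gene *cdx1a* (0.957), *anp32e* (0.946), and *CU469568.2* (0.942). For *enpp1* they were *C14H4orf47* (0.948), *fgf18a* (0.948), and *pdlim2* (0.940). The values were lower for *mgp* (*si:dkey-14o1.20*, 0.941, *sgms2b*, 0.914, and *p2ry11*, 0.911), and *panx3* (*iqsec3a*, 0.907, *nr2c2*, 0.898, and *dctn1b*, 0.897). Among the 10 genes the pair *entpd5a* and *ifitm5* was most alike, with r = 0.940, and *sp7* and *sparc* were most opposed, with r = -0.913. *bglap* had no group mean of 1 CPM and was left out. That limit was not set for the matches, and *si:dkey-14o1.20* had a highest group mean of 0.739 CPM.

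Wider lists of the pathway were read at the 3 last steps of the plain set. Of 15 genes of bone matrix and its collagens, 10 rose and 1 fell at 48 hpf over 24 hpf, with a median log2 fold change of 1.52, or 1.2 with genes at 0 counts set at their bound, against -0.03 over all genes, of which 2571 rose and 3100 fell. Among genes with counts at both stages the largest rises were of *col10a1a* (6.54 ± 0.40) and *sparcl1*, a relative of *sparc* (3.42 ± 0.55). *col10a1b* and *omd*, both among the 10 that rose, had 9 and 11 counts at 48 hpf and 0 at 24 hpf. Set against 3 counts over the 24 hpf group, their means as measured were 2.82-fold and 1.94-fold higher. The counting error of the 9 and 11 counts was left out, and these folds do not give their ranks. The type I collagen chains *col1a1a*, *col1a1b*, and *col1a2* were among the others that rose (named after their values were seen). At 72 hpf over 48 hpf 3 rose and 1 fell (818 and 957 of all genes), led by *col10a1a* (2.13 ± 0.26) and *postna*, a periostin (1.64 ± 0.50). At 96 hpf over 72 hpf none rose and 2 fell (514 and 558 of all genes), the collagen chaperones *fkbp10b* (-1.43 ± 0.24) and *serpinh1b* (-1.08 ± 0.16). In DrRyu libraries 8 of the 15 rose and none fell at 48 hpf over 24 hpf, where 3102 of all genes rose and 2845 fell. Over all genes, DrRyu alone called 2831 at this step, against 5947 in the fit over all libraries. Whether the calls of the 15 genes hold in DrRyu alone was not tested.

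The osteoblast regulators and the mineralization enzymes were counted in the same way, beside the same counts over all genes. Of 12 osteoblast regulators tested of 14, 1 rose and 2 fell at 48 hpf over 24 hpf, a share near the 26.2% of all genes called there, with *msx1a*, a homeobox gene, lowest (-1.19 ± 0.32), 1 fell at 72 hpf over 48 hpf, and 1 fell at 96 hpf over 72 hpf. Of 12 tested of 14 genes of mineralization enzymes and of phosphate or pyrophosphate handling, none was called at 48 hpf over 24 hpf. At 72 hpf over 48 hpf *slc20a1a*, a phosphate transporter, rose (1.82 ± 0.55) and *slc20a1b* fell (-0.48 ± 0.15). At 96 hpf over 72 hpf *slc34a2a*, another phosphate transporter, rose by 5.71 ± 1.27, to 6.97 ± 5.68 CPM at 96 hpf, against 0.105 ± 0.125 at 72 hpf (SD, n = 8 each). *alpl*, named after its values were seen, encodes tissue-nonspecific alkaline phosphatase. It averaged 1.27 ± 1.19 CPM at 48 hpf, 1.60 ± 0.893 at 72 hpf, and 1.36 ± 1.63 at 96 hpf in plain libraries and was called at none of these steps. In DrRyu libraries 3 of the 12 fell at 48 hpf over 24 hpf, namely *alpl*, *phospho1*, and *slc20a2*. *alpl* had 0 counts at 48 hpf and was at least 23.0-fold lower than at 24 hpf. In the same set 4 rose and 1 fell at 72 hpf over 48 hpf, where 2019 of all genes rose and 1898 fell. Of those that rose, *alpl* and *slc34a2a* had 0 counts at 48 hpf and 14 and 15 at 72 hpf. Set against 3 counts over the 48 hpf group, their means as measured were 2.77-fold and 4.00-fold higher, without the counting error of those 14 and 15 counts. The gene that fell, *slc34a2b*, had 22 counts at 48 hpf and 0 at 72 hpf and was 8.34-fold lower by the same measure. Over all genes, DrRyu alone called 1156 at this step, against 3917. Whether the DrRyu calls of these list genes, at this step or at 48 hpf over 24 hpf, hold in DrRyu alone was not tested.

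Of the 8 relatives of the 10 genes 1 was called at each of the 3 steps, where 26.2%, 8.2%, and 4.95% of all genes were. *panx1b* rose at 48 hpf over 24 hpf (2.30 ± 0.69). *ifitm1*, of the *ifitm5* family, rose at the 2 later steps. It ranged from 9.36 to 30.2 CPM with a median of 14.6 at 96 hpf and from 1.47 to 4.80 with a median of 3.07 at 72 hpf in plain libraries, which did not overlap (2.51 ± 0.66, adjusted p = 0.0078). At 72 hpf over 48 hpf its change was 3.57 ± 0.79 (adjusted p = 0.00050).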

How the data were processed

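RNA of whole RW embryos was measured by Lasy-Seq in 29 S, 40 DrRyu, and 52 plain libraries. Per the labels and the study's methods, the authors trimmed reads with fastp 0.21.0, used BWA 0.7.17-r1188 and Salmon with GRCz11 transcripts, and deposited a table of estimated counts by gene symbol, not normalized, of which 2 values were not whole and were rounded. Library totals and the precision they give stand in the report.

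Groups of stage and library set were taken from sample titles and descriptions. The 21638 genes that had 1 count or more in 8 libraries or more entered edgeR 4.0.16 (limma 3.58.1, R 4.3.3) with TMM scaling, 1 coefficient per group, quasi-likelihood tests of contrasts, and Benjamini-Hochberg adjustment over all genes, called at an adjusted p under 0.05. CPM use the same scaling. The SE of a log2 fold change was derived from the test, as its absolute value divided by the square root of the F statistic. A fold against a group at 0 counts is a bound, set at 3 counts over the group, for the counting error of that group only. The mean of the other group was taken as measured, so that a bound from few counts there may be too high. Zero floors and intervals do not cover library preparation. DESeq2 1.42.0, no filter, edgeR's own filter, each set alone, a replicate block, additive terms, and leaving out libraries were alternatives. Contrasts between sets and the fit without the libraries that stood apart were added after seeing the data. The 10 genes, the lists, and the rule for named genes (all 10, the genes most like each by r, and the called list genes with the largest changes) were chosen with earlier results of these data known. The fit was tested on simulated data for 96 hpf over 72 hpf of the plain set (21635 genes, 200 changed). All genes and libraries had a dispersion of 0.15, and the changed genes had a mean of at least 1 count. It recovered 83% of 4-fold and 24% of 2-fold changes, and 7 calls were false (6.14% of the calls). These rates were not tested for rarer genes or for the wider spread of DrRyu libraries. No pair of replicates agreed within sampling noise. Symbols were matched to a RefSeq table of another assembly for neighbouring genes only, with 9 of the 10 genes matched.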

Additional observations from a re-analysis of the deposited data

Results flagged for a closer look

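In 154 pairs of a gene and a group, the highest or lowest library was set against the nearest one by Dixon's criterion, by which chance marks about 1 in 20, and 32 pairs had a library far from the others. That rate is for normally distributed values. Several were groups near 0 in which 1 library held a few counts, and where 1 library alone held counts the group was flagged whatever the count. The 32 can therefore not be read against 1 in 20. All values are CPM.

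*sp7* had 20.8 in 1 library at 72 hpf of DrRyu, against 10.3 in the next. The highest *spp1* library had 1.45 at 15 ss of plain, 1.71 at 15 ss of S, and 0.663, 1.38, 2.40, and 13.6 at 20 ss, 24 hpf, 48 hpf, and 72 hpf of DrRyu. The *sp7* and *spp1* values at 72 hpf are of the same library, which also stood apart from its group over all genes.

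The highest *entpd5a* library had 0.362 at 15 ss and 15.9 at 96 hpf of plain, and 1.48 at 6 ss and 0.599 at 15 ss of S. For *bglap* it had 3.49, 1.21, 2.27, 1.24, and 2.35 at 6 ss, 20 ss, 24 hpf, 48 hpf, and 96 hpf of plain, and 1.11 at 15 ss of S. For *mgp* it had 6.13 at 15 ss and 5.68 at 96 hpf of plain, 5.92 at 96 hpf of S, and 4.94 at 72 hpf of DrRyu.

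The highest *phex* library had 2.83 at 6 ss and 3.36 at 20 ss of plain and 1.13 at 20 ss of DrRyu. For *ifitm5* it had 0.279, 0.419, and 28.8 at 15 ss, 20 ss, and 48 hpf of plain, 0.370 at 15 ss of S, and 3.66 at 20 ss and 4.76 at 24 hpf of DrRyu. For *enpp1* it had 6.87 at 6 ss of plain. *panx3* had 0 in 1 library at 96 hpf of S, against 6.36 in the next.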

How the results depend on the processing

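No called change of the 10 genes reversed its direction in any alternative run, and 322 recomputed log2 fold changes kept their call while 16 lost it. These tallies hold only runs that gave the gene an adjusted p. DESeq2 gave *bglap* none at 32 hpf over 24 hpf of DrRyu or for DrRyu over plain at 24 hpf. With edgeR's own filter 9 of the 10 genes were tested. Of the recomputed counts of the 10 genes called, 129 were equal, 23 differed by 1 within a ratio of 1.5, and 16 moved beyond it. With each set alone it was 2 at 20 ss over 15 ss and 2 at 96 hpf over 72 hpf of plain, 2 at 15 ss over 10 ss of S, and 0 at 32 hpf over 24 hpf and 0 at 72 hpf over 48 hpf of DrRyu. With DESeq2 it was 2 at 20 ss over 15 ss of plain, 2 at 72 hpf over 48 hpf of DrRyu, 1 each for the plain and DrRyu differences in 24 hpf over 20 ss and in 48 hpf over 24 hpf, 2 for DrRyu over plain at 20 ss, and 1 for DrRyu over plain at 24 hpf. With additive stage and set terms it was 3 at 72 hpf over 48 hpf, against 1 in plain and 1 in DrRyu. These terms give 1 estimate over the sets, which the tallies above hold once for each set with the step. Without the libraries that stood apart it was 2 at 20 ss over 15 ss of plain and 0 at 72 hpf over 48 hpf of DrRyu. Leaving out each 15 ss library in turn left it at 1 to 1. The cause of these shifts was not tested.

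The replicate block gave 2 at 72 hpf over 48 hpf of DrRyu. As replicate numbers are nested in a set, it gives no value for S or DrRyu over plain at 1 stage. Of 144 plain, 39 S, and 80 DrRyu pairs of same-numbered libraries, 0 had a correlation of deviations over 0.1, so no strong pairing by number was seen. A weak pairing could be hidden by counting error and is not excluded. With the block *bglap* was no longer called at 32 hpf over 24 hpf (adjusted p = 0.11) or at 48 hpf over 24 hpf (0.056) of DrRyu.

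Over all genes, each set alone called 1748 against 568 at 15 ss over 6 ss, 2442 against 896 at 20 ss over 15 ss, 4847 against 2914 at 24 hpf over 20 ss, 3595 against 1775 at 72 hpf over 48 hpf, and 2701 against 1072 at 96 hpf over 72 hpf of plain. In S it called 813 against 361 and 731 against 384. In DrRyu it called 506 to 2858 against 2610 to 5947. Additive terms, as 1 estimate over the sets, called 5819 and 3943 at 24 hpf over 20 ss and 72 hpf over 48 hpf, against 2914 and 1775 in plain. DESeq2 called 592 and 588 for the S steps, 368 against 172 for the plain and S difference, and 195, 341, and 536 against 116, 183, and 275 for S over plain. The block called 670, 574, and 221 against 1088, 992, and 442 for the plain and DrRyu differences, and edgeR's filter 280 for the last. Without 1 plain library at 15 ss, 351 were called at 15 ss over 6 ss (replicate 4) and 117 for S over plain (replicate 3).

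By column totals *sparc* averaged 491, 728, and 1075 CPM at 24, 48, and 72 hpf of plain and 994 at 96 hpf of S, and *enpp1* 9.83 at 48 hpf of plain, and the other 155 means moved by less than 1 SD. No library had a total low enough for its set to be left out on that account, so that alternative gave no value. Depth limits *bglap*, *mgp*, and the early stages of *spp1*, *entpd5a*, and *ifitm5*, where groups hold few counts.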

Other observations

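Genes of bone resorption, of the otolith, and of calcium hormones were read at the last 3 steps of the plain set. The lists are named by known roles of the genes. Over all genes 26.2%, 8.2%, and 4.95% were called in either direction at these steps. Of the 8 osteoclast genes tested 1 was called at each step, and of the 9 calcium genes tested 1 was called at 48 hpf over 24 hpf. In RNA of whole embryos, which cells held these transcripts was not tested, so a change is no measure of osteoclasts or resorption. Of 8 osteoclast genes tested of 10, *acp5a*, tartrate-resistant acid phosphatase, fell by 1.09 at 48 hpf over 24 hpf and by 2.79 at 72 hpf over 48 hpf on the log2 scale (SE 0.16 and 0.17), and *mmp9*, a matrix metalloproteinase, rose by 2.78 ± 0.56 at 96 hpf over 72 hpf (adjusted p = 0.00015). *acp5a* fell in DrRyu libraries too, by 1.68 and 2.39 at the first and second of these steps.

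Of the 3 otolith genes tested of 4, *oc90*, an otoconin, fell by 3.67 at 48 hpf over 24 hpf and by 1.31 at 72 hpf over 48 hpf, and *stm*, starmaker, rose by 0.74 at 72 hpf over 48 hpf. Of 9 calcium genes tested of 13, *stc2a*, a stanniocalcin, rose by 0.84 ± 0.30 and 0.90 ± 0.30 at the same steps, and none was called at 96 hpf over 72 hpf by edgeR.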
